A study of Homo sapiens with 9 samples.

Results

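The 52 genes described here encode proteins that take a cell through mitosis: cyclin A2 and the B-type cyclins with their kinase CDK1, kinases and phosphatases of mitotic entry, the chromosomal passenger complex, the spindle checkpoint, kinetochore proteins, kinesin motors, spindle and cytokinesis proteins, and TOP2A and MKI67. They were picked by gene symbol, and all 52 were found among the 22587 genes of the deposited table of FPKM (fragments scaled by gene length and library total). RNA-seq had been run on the HepG2 cell line, grown from a human liver cancer and used as a model of hepatocellular carcinoma, to follow Gln (glutamine) deprivation over time. There were 3 groups of 3 libraries each: HepG2 with Gln added, HepG2 deprived of Gln for 12 h and HepG2 deprived of Gln for 24 h.

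All cultures were kept in high-glucose DMEM with fetal bovine serum. For deprivation, the medium was exchanged 24 h after seeding for DMEM without Gln. The labels name GlutaMAX, a dipeptide that supplies Gln, as the treatment of the Gln-added cultures, whereas the protocol text puts it into the deprivation medium, so the exact supplement of each group is not settled by the labels. When the Gln-added cultures were collected is not stated. The Gln-added group is therefore a common reference for both times and not a zero time point. Nothing says that the 3 libraries of a group came from separate cultures, so p-values measure the spread between these libraries, which may be technical.

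Whole numbers of fragments could be read back from the FPKM and ranged from 29595229 to 36230245 per library. The hepatocyte markers were in place: 10 of 10 were in the table, and they summed to between 7563 and 7663 FPKM with Gln added, between 6627 and 6698 FPKM at 12 h and between 6401 and 6734 FPKM at 24 h. Of these 10, 6 were lower and 1 higher at 12 h (31.0% and 29.1% of all genes tested). At 24 h, 6 were lower (31.7% of all genes tested), with AFP at -0.51 and FGB at -0.48 on the log2 scale. Of 12 markers of other cell types, 9 were in the table. LYZ (mean of 742 FPKM with Gln added) and ACTA2 (35.9 FPKM) were high in this line, and the other 7 together summed to between 1.46 and 3.03 FPKM in every library. The median log2 difference over the 11880 genes that averaged 0.5 FPKM or more and were tested was -0.02 at 12 h and 0.01 at 24 h. LYZ and ACTA2 were lower at 12 h (log2 differences of -0.46 and -0.57), and ACTA2 was also lower at 24 h (-0.73). The part of these markers in the results was not tested.

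Entry into mitosis is driven by CDK1 bound to cyclins A and B, which is switched on by CDC25 phosphatases and sustained by Polo and Aurora kinases. Chromosomes then attach to spindle microtubules through kinetochores, and the spindle checkpoint holds back the anaphase-promoting complex until every kinetochore is attached. The messenger RNAs of many of these proteins are made mainly in G2 phase and mitosis, under FOXM1 and the B-MYB-MuvB complex, and are repressed by the DREAM complex in resting cells. Their level in a bulk sample therefore also follows the share of cells in these phases.

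After 24 h of Gln deprivation, 49 of the 52 genes were lower than with Gln added and none was higher (limma on log2(FPKM + 0.1), Benjamini-Hochberg adjusted p under 0.05). Of all genes tested, 31.7% were called lower and 33.0% higher in that comparison. The median log2 difference was -0.80 for the mitotic genes and 0.01 for all genes. In mean FPKM, the median gene stood at 57.2% of its level with Gln added, 31 genes were below 60% and 12 were below 50%. These are bulk samples, in which fewer dividing cells and less RNA per dividing cell cannot be told apart.

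At 12 h the picture was split. Of the 52 genes, 30 were lower, 5 were higher and 17 had no call, against 31.0% lower and 29.1% higher among all genes. Their median log2 difference was -0.16, and the median gene was at 89.8% of its level with Gln added. A fall of at least 0.5 on the log2 scale had been reached by 11 genes at 12 h (10.8% of all genes) and by 42 at 24 h (12.4% of all genes). No gene had risen by that much at 12 h (9.65% of all genes) or 24 h (12.6%).

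From 12 h to 24 h, 50 of the 52 genes fell and none rose, whereas 10.5% of all genes fell and 9.57% rose. The median log2 difference over this interval was -0.56, and 30 genes fell by at least 0.5, which 1.41% of all genes did, while none rose by that much (1.77%). All 3 libraries at 24 h were below all 3 at 12 h for 50 of the 52 genes (16.9% of all genes), and below all 3 with Gln added for 51 (34.1% of all genes). For none were all 3 libraries at 24 h above those at 12 h (17.5%) or with Gln added (35.7%). At 12 h, 30 genes had all 3 libraries below those with Gln added (34.4% of all genes) and 5 had all 3 above (32.8%). They are not in every case the genes called at 12 h. All 3 libraries of BIRC5 lay below without a call, and ASPM was called lower although its libraries overlapped. The comparisons with Gln added share its 3 libraries, and the 12 h libraries enter both intervals.

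**Figure D1:**
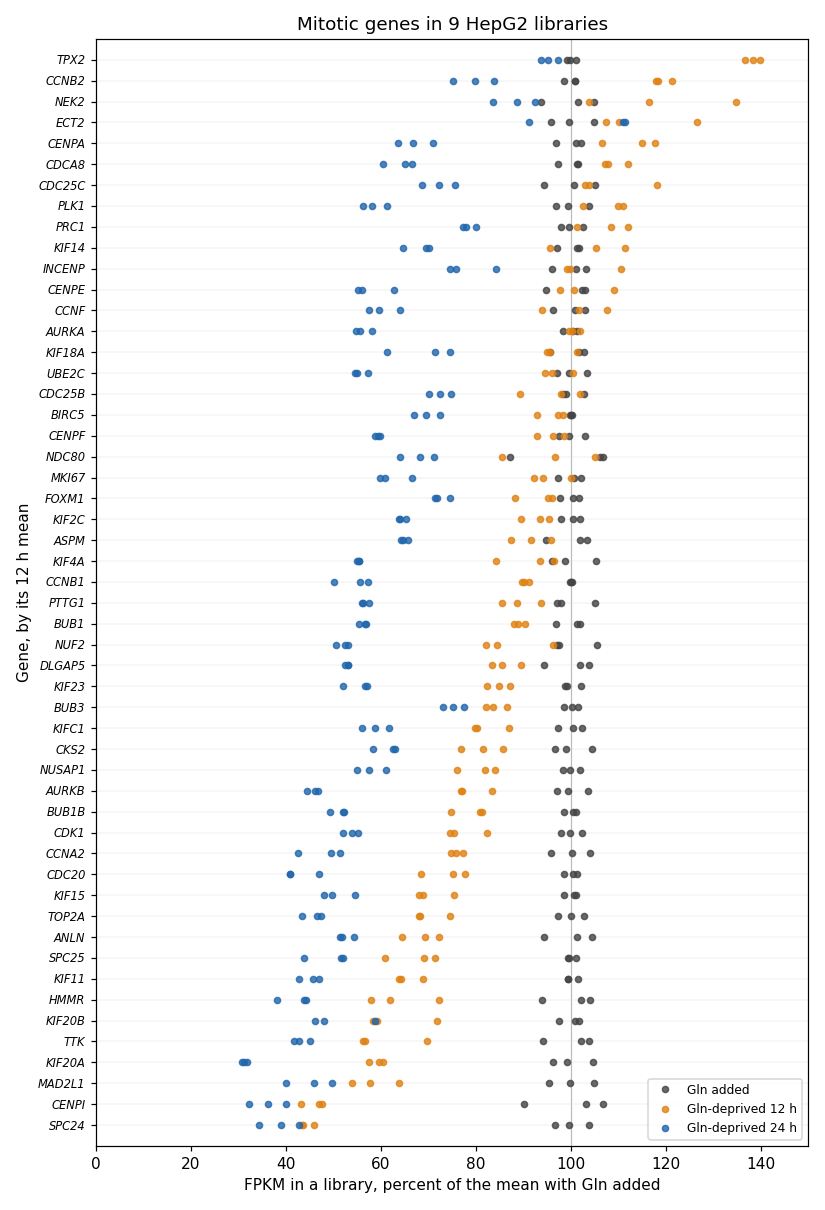
FPKM of each of the 52 genes in each of the 9 libraries, as a percent of that gene's mean with Gln added (x axis, percent), genes ordered by their 12 h mean. The 24 h points lie left of the 12 h points for 50 genes, while the 12 h points run from 44.2% (SPC24) to 138% (TPX2) of the level with Gln added on average.

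The time course sorted the genes into classes, as calls of the same limma fit. Lower at 12 h and lower again by 24 h were 29 genes (5.38% of all genes tested), whose median went from 78.9% of the level with Gln added at 12 h to 52% at 24 h. With no call in either direction at 12 h, 16 genes were called lower at 24 h and from 12 h to 24 h (2.47% of all genes). They were CCNF, CDC25B, CDC25C, PLK1, AURKA, BIRC5, INCENP, UBE2C, CENPE, CENPF, NDC80, KIF14, KIF18A, KIF4A, PRC1 and MKI67. Their median was at 98.9% at 12 h and at 65.1% at 24 h. Higher at 12 h were CCNB2, NEK2, CDCA8, CENPA and TPX2, and all 5 then fell by 24 h, a course that 2.37% of all genes took. SPC24 was lower at 12 h with no call from 12 h to 24 h (23.0% of all genes). It was still lower than with Gln added at 24 h. ECT2 had no call in any comparison.

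These classes rest on a threshold, so the missing calls need their intervals. For the 16 genes called only at 24 h, the 95% confidence intervals of the 12 h difference lay between -0.26 and 0.26 on the log2 scale, and 8 of the 16 differences were above 0. For the 29 genes that fell in both intervals, the part of the 24 h log2 difference present at 12 h had a median of 39.5% and ran from 16.8% (CCNB1) to 76.9% (CENPI), and it was over 50% in 10 genes. Under 19 other ways of fitting the data, 38 of the 52 genes kept their class in every fit. Among the others, FOXM1 and ASPM sat near the threshold at 12 h (adjusted p of 0.0489 and 0.0488) and KIF20B after 12 h (adjusted p = 0.0476). FOXM1 kept its class in 8 of the 19 fits, and ASPM and KIF20B in 6 each. CENPA, less near the threshold at 12 h (adjusted p = 0.0127), kept its class in 18.

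**Figure D2:**
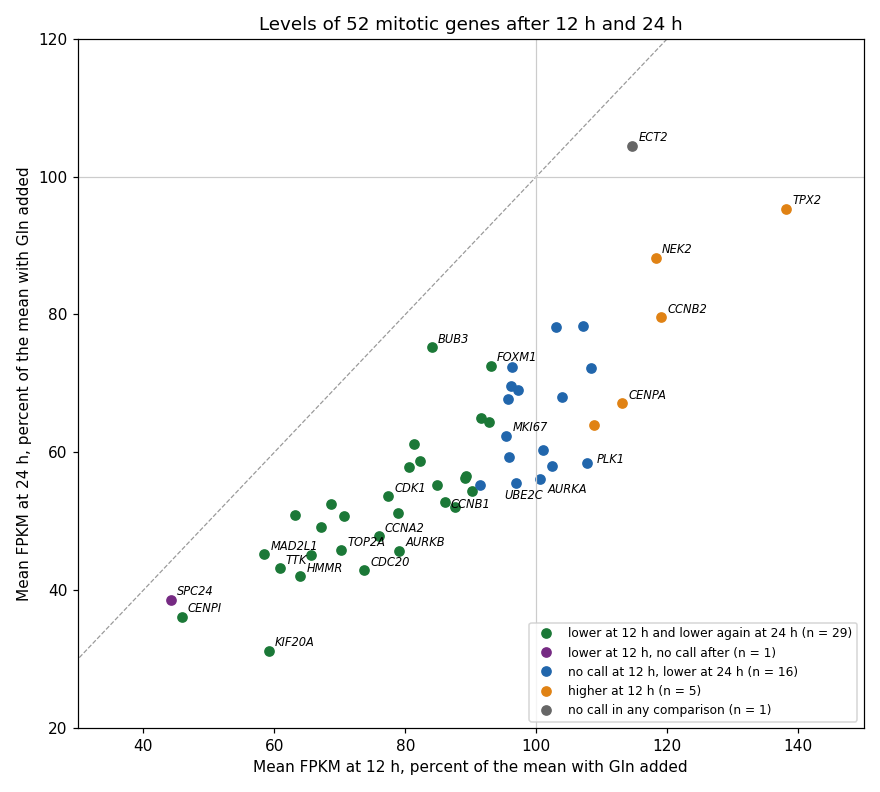
Mean FPKM at 24 h (y axis) against mean FPKM at 12 h (x axis), each as a percent of the mean with Gln added, for the 52 genes, colored by time class. The dashed line marks equal levels at both times: all 52 genes lie below it, and the 16 genes called only at 24 h sit between 91.4% and 108% on the x axis.

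Promoters are shown because genes of this kind are known to share short elements near their start. The CHR, bound by the MuvB complex, was searched as the letters TTTGAA or TTTAAA only. The CCAAT box, bound by NF-Y, was searched as the letters CCAAT. The RefSeq promoter table of GRCh38.p14 held an entry (250 bases before to 50 after the start) for 45 of the 52 genes. Not matched were TPX2, BIRC5, AURKA, UBE2C, BUB3, FOXM1 and TTK. The letters were searched on both strands. A window with a CHR was found for 39 of the 45 genes (86.7%), against 20.6% of the 9543 tested genes with an entry and 27.9% of all 27305 genes of the table. A CCAAT box was found for 37 genes (82.2%, against 43.2% and 39.7%), and both elements for 31 (68.9%, against 8.63% and 11.2%). E2F-like letters, for which TTTGGCG was searched together with the forms written TTTCCCG, with the further form TTTCGCG and lastly with TTTGCCG, were present for 8 genes (17.8%, against 16.5% and 10.4%). Some genes have several entries. Among those with 1 entry, 34 of 39 mitotic genes (87.2%) and 14.8% of 6926 tested genes had a CHR.

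The 100 bases just before the RefSeq start of 8 genes are printed here, 5′ to 3′ on the gene's strand (GRCh38.p14). They cover every time class but that of ECT2, and SPC24, alone in its class, shows only a CCAAT box. RefSeq starts can differ from the GENCODE gene positions given below. The KIF20A window lies downstream of its GENCODE start (138178719), and the CCNB1, CCNB2 and SPC24 windows hold 15, 20 and 25 bases of GENCODE exons. Capitals mark CHR letters and CCAAT boxes, read on either strand, so that ATTGG is a CCAAT box of the other strand. They were picked after the values were seen, from windows with few annotated exon bases.
CCNB1 (chr5:69167050-69167149, plus strand, lower at 12 h and further at 24 h): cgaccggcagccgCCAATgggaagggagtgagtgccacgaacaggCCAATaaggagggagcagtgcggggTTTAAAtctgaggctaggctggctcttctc
CDC20 (chr1:43358881-43358980, plus strand, lower at 12 h and further at 24 h): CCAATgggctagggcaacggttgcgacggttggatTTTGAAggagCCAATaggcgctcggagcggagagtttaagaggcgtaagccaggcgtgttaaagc
KIF20A (chr5:138179012-138179111, plus strand, lower at 12 h and further at 24 h): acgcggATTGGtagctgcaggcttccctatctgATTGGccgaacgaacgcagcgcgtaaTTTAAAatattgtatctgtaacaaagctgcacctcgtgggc
MKI67 (chr10:128126424-128126523, minus strand, lower only at 24 h): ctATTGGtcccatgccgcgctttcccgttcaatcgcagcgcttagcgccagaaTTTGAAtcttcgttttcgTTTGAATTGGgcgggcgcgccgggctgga
KIF4A (chrX:70290004-70290103, plus strand, lower only at 24 h): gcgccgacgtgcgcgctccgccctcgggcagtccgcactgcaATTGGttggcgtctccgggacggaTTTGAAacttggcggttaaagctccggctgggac
CCNB2 (chr15:59105046-59105145, plus strand, higher at 12 h, then lower): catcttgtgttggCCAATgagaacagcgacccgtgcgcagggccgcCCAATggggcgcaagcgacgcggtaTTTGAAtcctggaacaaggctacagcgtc
CCNA2 (chr4:121823884-121823983, minus strand, lower at 12 h and further at 24 h): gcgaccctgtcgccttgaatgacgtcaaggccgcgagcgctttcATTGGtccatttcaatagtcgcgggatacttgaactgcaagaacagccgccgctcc
SPC24 (chr19:11155783-11155882, minus strand, lower at 12 h, no call after): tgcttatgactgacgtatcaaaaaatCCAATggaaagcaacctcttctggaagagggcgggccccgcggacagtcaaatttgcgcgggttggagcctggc

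CCNB1, KIF20A and CCNB2 each show a pair of CCAAT boxes followed by a CHR close to the start, although CCNB2 was higher at 12 h and the others were lower. In CDC20 the CHR lies between the pair of CCAAT boxes. MKI67, which had no call at 12 h, holds a CHR that shares a base with a CCAAT box (TTTGAATTGG) and another CHR upstream of it. KIF4A, also called only at 24 h, has 1 of each. CCNA2 and SPC24 have CCAAT boxes and neither TTTGAA nor TTTAAA in the window searched. Other spellings, such as the cttgaa in the printed CCNA2 bases, were not searched. A CHR written otherwise would therefore be missed. By class, a CHR was present for 22 of 26 genes lower at 12 h and again by 24 h. It was present for 13 of 13 genes lower only at 24 h and for 3 of 4 higher at 12 h. In the 250 bases before the start alone, these were 17 of 26, 11 of 13 and 3 of 4. The 6 genes without TTTGAA or TTTAAA in the whole window were CCNA2, NEK2, AURKB, BUB1, CENPI and SPC24. A match of letters is not a bound site, and no binding was measured here.

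Among the cyclins and their partners, CCNA2, CCNB1, CDK1 and CKS2 fell at 12 h and again by 24 h, CCNF fell only later, and CCNB2 rose first. CDK1, the kinase that drives mitotic entry (chromosome 10, 60778331 to 60794852), was at 48.8, 46.7 and 47.5 FPKM with Gln added, at 35.9, 35.5 and 39.2 FPKM at 12 h and at 24.7, 25.6 and 26.2 FPKM at 24 h. The 3 groups did not overlap. Its log2 difference from Gln added was -0.37 ± 0.045 (SE) at 12 h and -0.90 ± 0.045 at 24 h (adjusted p of 4.22e-05 and 3.71e-08, n = 3 per group). CCNB1, cyclin B1 (chromosome 5, 69167135 to 69178245), started higher, at 96.3, 96.0 and 95.8 FPKM. It was at 87.5, 86.0 and 86.5 FPKM at 12 h, a small but separate step of -0.15 (adjusted p = 0.0155), and at 53.4, 48.2 and 54.9 FPKM at 24 h, a difference of -0.88 (adjusted p = 4.45e-08). In mean FPKM, CCNB1 kept 90.25% of its Gln-added level to 12 h and 54.3% to 24 h.

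CCNA2, cyclin A2, which acts from S phase into early mitosis (chromosome 4, 121816444 to 121823883), had 63.9, 58.9 and 61.6 FPKM with Gln added, 45.9, 46.5 and 47.5 FPKM at 12 h, and 26.1, 31.5 and 30.4 FPKM at 24 h. Its log2 differences were -0.40 at 12 h and -1.07 at 24 h (adjusted p of 2.96e-04 and 1.31e-07), the largest 24 h fall of this group. CKS2, a small CDK-binding subunit and the most abundant of the 52 genes, went from a mean of 198 FPKM to 161 and then 122 FPKM. CCNF, a substrate receptor of an SCF ubiquitin ligase, was at 101% of its Gln-added level at 12 h and at 60.3% at 24 h.

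CCNB2, the other B-type cyclin (chromosome 15, 59105126 to 59125045), went the other way first. It was at 45.9, 45.8 and 44.8 FPKM with Gln added, at 55.2, 53.6 and 53.8 FPKM at 12 h and at 36.3, 34.2 and 38.2 FPKM at 24 h. All 12 h libraries were above, and all 24 h libraries below, those with Gln added. The log2 difference was 0.25 ± 0.042 at 12 h (adjusted p = 3.93e-04) and -0.33 ± 0.042 at 24 h (adjusted p = 4.58e-05), and it kept its class in all 19 other fits.

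The kinases, phosphatases and regulators of entry had the highest median at 12 h of the role groups, 104% of the level with Gln added: PLK1, AURKA, CDC25B and CDC25C had no call then, FOXM1 was just lower and NEK2 was higher. In mean FPKM the 6 genes ran from 93.1% to 118% of the level with Gln added at 12 h and from 56.1% to 88.2% at 24 h. PLK1, the Polo kinase of mitotic entry and spindle assembly (chromosome 16, 23677656 to 23690367), was at 118, 123 and 115 FPKM with Gln added and at 130.2, 131 and 121 FPKM at 12 h. At 24 h it was at 68.7, 72.6 and 66.4 FPKM. The 12 h libraries overlapped those with Gln added, and the 24 h libraries lay far below both. Its 12 h difference of 0.11 had an interval from 0.01 to 0.21 (adjusted p = 0.0606) and was called higher in 7 of the 19 other fits, including those without Gln added replicate 2 (0.13), 12 h replicate 3 (0.14) or 24 h replicate 2 (0.11). The fall from 12 h to 24 h was -0.88 (adjusted p = 2e-06).

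AURKA, the Aurora kinase of the spindle poles (chromosome 20, 56369389 to 56392337), had no detectable difference at 12 h. It had 68.0, 66.6 and 68.6 FPKM with Gln added, 67.5, 69.1 and 67.8 FPKM at 12 h, and 39.3, 37.1 and 37.6 FPKM at 24 h. The 12 h difference was 0.01, with a 95% interval from -0.07 to 0.08. The fall afterwards was -0.84 ± 0.034 (adjusted p = 7.29e-07), so that the whole 24 h difference of -0.83 (adjusted p = 8.07e-09) arose between the later groups.

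FOXM1, the transcription factor of the G2 and mitosis program (chromosome 12, 2857680 to 2877174), was at 41.5, 41.0 and 39.9 FPKM with Gln added, at 39.1, 38.8 and 35.9 FPKM at 12 h and at 29.1, 30.4 and 29.2 FPKM at 24 h. Its 12 h difference of -0.10 (adjusted p = 0.0489) lost its call in 11 of the 19 other fits, among them those without Gln added replicate 1 (-0.09), 2 (-0.10) or 3 (-0.12), 12 h replicate 2 (-0.12) or 3 (-0.07), or 24 h replicate 3 (-0.10). At 24 h the difference was -0.46 (adjusted p = 3.27e-06). Of FOXM1 exons, 15.9% of bases are overlapped by a gene of the opposite strand, and whether counting used strand is not given in the sources used here.

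CDC25B and CDC25C, phosphatases that activate CDK1, were at 96.4% and 108% of the Gln-added level at 12 h and at 72.4% and 72.2% at 24 h. NEK2, a kinase of centrosome separation (chromosome 1, 211658657 to 211675630), was at 12.1, 11.2 and 12.5 FPKM with Gln added, at 12.4, 13.9 and 16.1 FPKM at 12 h and at 9.96, 11.02 and 10.6 FPKM at 24 h. Its 12 h libraries overlapped those with Gln added, and its 12 h call (0.23, adjusted p = 0.0355) was lost without Gln added replicate 1 (0.25) or 2 (0.19) and without 12 h replicate 2 (0.24) or 3 (0.14). At 24 h it stood at -0.18 (interval from -0.37 to 0.01, adjusted p = 0.088), a value called lower without 12 h replicate 1 or 3 (-0.18 each). The fall from 12 h to 24 h, -0.41, had an adjusted p of 0.0072.

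The chromosomal passenger complex, which corrects wrong kinetochore attachments, did not move as a unit at 12 h: its kinase AURKB was lower, CDCA8 (Borealin) was higher, and BIRC5 (Survivin) and INCENP had no call. All 4 were lower at 24 h (31.7% of all genes). AURKB (chromosome 17, 8204733 to 8210600) had 26.4, 28.2 and 27.1 FPKM with Gln added, 22.7, 21.0 and 20.9 FPKM at 12 h, and 12.7, 12.1 and 12.6 FPKM at 24 h. The log2 differences of AURKB were -0.34 at 12 h and -1.12 at 24 h (adjusted p of 9.36e-05 and 8.03e-09), with no overlap between groups. CDCA8 was at 35.5, 35.4 and 34.0 FPKM, then at 37.4, 39.1 and 37.7 FPKM, and then at 22.7, 21.1 and 23.2 FPKM. Its 12 h rise of 0.12 (adjusted p = 0.0286) kept its call in 15 of the 19 other fits and lost it without Gln added replicate 1 (0.13), 2 (0.13) or 3 (0.10) or 12 h replicate 2 (0.10). BIRC5 and INCENP ended at 69.6% and 78.1% of the level with Gln added.

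In the spindle checkpoint and anaphase group, 7 of 8 genes were lower at 12 h (31.0% of all genes), all but UBE2C. All 8 were lower at 24 h (31.7% of all genes). MAD2L1, which encodes the checkpoint protein MAD2 (chromosome 4, 120055623 to 120066858), was among the earliest to fall. It was at 17.4, 15.8 and 16.5 FPKM with Gln added, at 8.96, 9.55 and 10.6 FPKM at 12 h and at 6.62, 7.63 and 8.24 FPKM at 24 h. The 12 h difference was -0.77 ± 0.083 (adjusted p = 1.86e-05), or 67.6% of the 24 h difference of -1.14 (adjusted p = 6.79e-07). TTK, the kinase that starts checkpoint signaling, stood at 60.8% of its Gln-added level at 12 h and at 43.2% at 24 h.

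CDC20, the target of the checkpoint and activator of the anaphase-promoting complex (chromosome 1, 43358981 to 43363203), was at 109.8, 111 and 108 FPKM with Gln added, at 82.2, 84.9 and 74.7 FPKM at 12 h and at 51.2, 44.6 and 44.7 FPKM at 24 h. Its log2 differences were -0.44 and -1.22 (adjusted p of 9.98e-05 and 3.35e-08). BUB1 and BUB1B, checkpoint kinase and pseudokinase, were at 89.1% and 78.9% at 12 h and at 56.2% and 51.2% at 24 h. BUB3, their WD-repeat partner, moved least at 24 h among the genes lower at both times, from 84.1% to 75.2%. PTTG1, securin, went from 89.3% to 56.5%. UBE2C, the ubiquitin-conjugating enzyme of the anaphase-promoting complex, was at 97.0% at 12 h (difference of -0.04, interval from -0.13 to 0.04) and at 55.6% at 24 h.

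**Figure D3:**
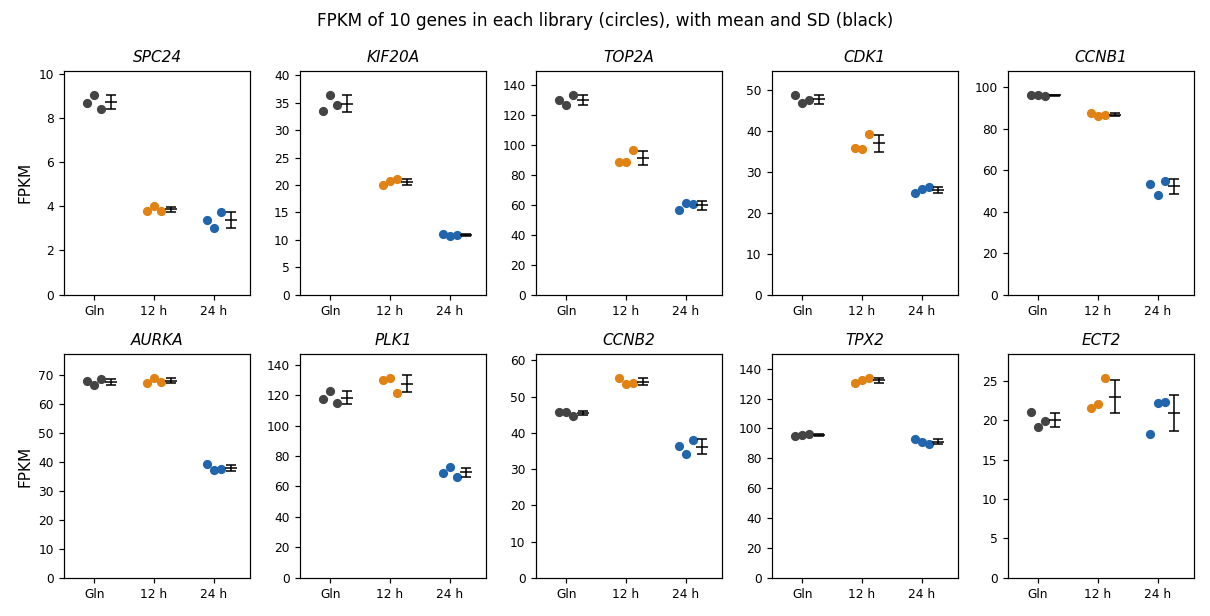
FPKM (y axis, from 0) of 10 genes in each of the 3 libraries with Gln added, after 12 h and after 24 h of Gln deprivation (circles), with the mean and SD of each group in black. SPC24, KIF20A, TOP2A, CDK1 and CCNB1 were lower at 12 h, AURKA and PLK1 had no call then and were lower at 24 h, CCNB2 and TPX2 were above all Gln-added libraries at 12 h, and ECT2 had no call.

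The kinetochore genes differed in course. At 12 h, 4 of 8 were lower (31.0% of all genes), CENPA was higher (29.1%), and CENPE, CENPF and NDC80 had no call. SPC24 and SPC25 encode the inner end, and NDC80 and NUF2 the microtubule-binding end, of the same 4-protein NDC80 complex. SPC24 (chromosome 19, 11131520 to 11155807) was at 8.68, 9.05 and 8.41 FPKM with Gln added, at 3.78, 3.99 and 3.79 FPKM at 12 h and at 3.38, 2.99 and 3.72 FPKM at 24 h. Its 12 h difference of -1.16 ± 0.075 (adjusted p = 3.9e-07) was the largest of the 52 genes. At 24 h the difference of SPC24 from Gln added was -1.35 (adjusted p = 8.13e-08). Between 12 h and 24 h it changed by -0.20 (interval from -0.36 to -0.03, adjusted p = 0.0918), which passed only without 24 h replicate 3 (-0.27). SPC25 was at 67.1% at 12 h and NUF2 at 87.6%, both called lower, while NDC80 was at 95.7% with no call (interval from -0.26 to 0.14). At 24 h these 3 were at 49.1%, 52% and 67.8%.

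CENPI, of the inner kinetochore (chromosome X, 101098188 to 101166126), was also among the earliest to fall. It was at 3.94, 3.44 and 4.08 FPKM with Gln added, at 1.79, 1.82 and 1.65 FPKM at 12 h and at 1.23, 1.38 and 1.53 FPKM at 24 h. The difference was -1.08 at 12 h (adjusted p = 4.99e-06) and -1.41 at 24 h (adjusted p = 4.74e-07). The step of -0.33 after 12 h (adjusted p = 0.0408) was lost in 10 of the 19 other fits, among them those without Gln added replicate 1 or 3 (-0.33 each), 12 h replicate 1 (-0.31) or 2 (-0.30), or 24 h replicate 1 (-0.25) or 2 (-0.33). CENPI was the least abundant of the 52 genes, with a mean of 3.82 FPKM with Gln added.

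CENPE, the kinesin of the outer kinetochore (chromosome 4, 103105349 to 103198445), was late. It had 6.22, 5.75 and 6.25 FPKM with Gln added, 6.11, 5.93 and 6.62 FPKM at 12 h, and 3.35, 3.81 and 3.40 FPKM at 24 h. Its 12 h interval ran from -0.12 to 0.18, and it then fell by 0.80 on the log2 scale (adjusted p = 3.17e-05). CENPF, a large protein of the outer kinetochore, was at 95.8% at 12 h and 59.3% at 24 h. CENPA, the histone variant that marks the centromere, was at 30.03, 28.5 and 29.8 FPKM, then at 31.3, 33.9 and 34.7 FPKM, and then at 19.6, 18.7 and 20.9 FPKM. Its 12 h rise of 0.18 (adjusted p = 0.0127) kept its call in all of the 19 other fits but that without Gln added replicate 2 (0.15), and its 24 h difference was -0.57 (adjusted p = 3.25e-06).

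Of the 10 kinesin motors, 7 were lower at 12 h (31.0% of all genes) and all 10 at 24 h (31.7%). KIF20A, a kinesin of the central spindle and cytokinesis (chromosome 5, 138178719 to 138187723), showed the largest 24 h difference of the 52 genes. It was at 33.5, 36.5 and 34.6 FPKM with Gln added, at 20.005, 20.8 and 21.1 FPKM at 12 h and at 11.1, 10.7 and 10.8 FPKM at 24 h, with wide gaps between the groups. The log2 difference was -0.76 ± 0.042 at 12 h (adjusted p = 1.39e-07) and -1.67 ± 0.042 at 24 h (adjusted p = 3.19e-10), and the step of -0.92 from 12 h to 24 h was also the largest of the 52 genes. At 24 h KIF20A was at 31.2% of its level with Gln added.

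KIF11, the motor that pushes spindle poles apart, and KIF15, which can share its task, were at 65.6% and 70.7% at 12 h and at 45.1% and 50.8% at 24 h. KIF20B was at 63.1% at 12 h, KIFC1 at 82.3%, KIF23 at 84.8% and KIF2C at 92.8%, all called lower. KIF4A was at 91.4% without a call (interval from -0.25 to -0.01, adjusted p = 0.0643). A near-identical retrocopy, KIF4B, could share its fragments, but was itself between 0.0523 and 0.264 FPKM. KIF14, KIF18A and KIF4A were lower only at 24 h, at 68.1%, 69.0% and 55.2%.

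Among the spindle-associated and cytokinesis proteins, TPX2 and ECT2 were not called lower at 24 h. TPX2, which activates AURKA on spindle microtubules (chromosome 20, 31739271 to 31801805), was at 94.9, 95.5 and 96.6 FPKM with Gln added, at 131, 132 and 134 FPKM at 12 h and at 93.1, 91.0 and 89.5 FPKM at 24 h. The rise of 0.47 ± 0.03 at 12 h (adjusted p = 3.58e-07) was the largest of the 52 genes and was followed by a step of -0.54 (adjusted p = 3.12e-06). At 24 h all 3 libraries were below those with Gln added, but the difference of -0.07 had no call (adjusted p = 0.0644); without 24 h replicate 1 it was -0.08 and called lower.

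ECT2, the exchange factor that activates RhoA for cytokinesis (chromosome 3, 172750682 to 172821474), was at 21.0, 19.2 and 19.97 FPKM with Gln added, at 21.6, 22.1 and 25.4 FPKM at 12 h and at 18.3, 22.2 and 22.4 FPKM at 24 h. All 3 of its 12 h libraries were above those with Gln added, by 0.19 on the log2 scale (interval from 0.01 to 0.38, adjusted p = 0.0668); without 24 h replicate 1 the same value was called higher. The 24 h libraries overlapped both other groups, and the 24 h difference was 0.06 (interval from -0.13 to 0.24, adjusted p = 0.568).

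HMMR, a microtubule-bound spindle assembly factor (chromosome 5, 163460203 to 163491941), fell early and far. It was at 27.1, 25.0 and 27.6 FPKM with Gln added, at 15.4, 16.4 and 19.2 FPKM at 12 h and at 10.1, 11.7 and 11.6 FPKM at 24 h, for log2 differences of -0.65 and -1.25 (adjusted p of 6.89e-05 and 3.58e-07). ANLN, the scaffold of the contractile ring, was at 68.7% at 12 h and 52.5% at 24 h. NUSAP1, DLGAP5 and ASPM, which organize spindle microtubules, went from 80.6%, 86.1% and 91.5% at 12 h to 57.9%, 52.8% and 64.9% at 24 h. PRC1, the crosslinker of the central spindle, was at 107% at 12 h and 78.3% at 24 h. In GENCODE, 86.8% of the exonic bases of NUSAP1 and 57.6% of those of PRC1 are also covered by another gene of the same strand. The values of both are therefore uncertain. Same-strand overlap was 10.2% for BUB1B and 7.08% for CENPA. Opposite-strand overlap was 34.3% for PRC1, 14% for KIFC1, 12.8% for PLK1 and 11.8% for CCNF, and smaller for some others.

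TOP2A and MKI67 mark chromatin of dividing cells, and TOP2A was called lower at both times and MKI67 only at 24 h. TOP2A, the topoisomerase that untangles sister chromatids (chromosome 17, 40388525 to 40417896), was at 130.3, 127 and 134 FPKM with Gln added, at 88.7, 88.7 and 97.1 FPKM at 12 h and at 56.6, 61.6 and 60.7 FPKM at 24 h. Its differences were -0.51 and -1.13 (adjusted p of 5.72e-06 and 1.01e-08), without overlap. MKI67, the proliferation marker that coats mitotic chromosomes (chromosome 10, 128096659 to 128126423), was at 46.3, 48.0 and 48.7 FPKM, then at 43.9, 47.6 and 44.9 FPKM, and then at 28.5, 31.7 and 29.0 FPKM. Its 12 h libraries overlapped those with Gln added (-0.07, interval from -0.17 to 0.04), and its 24 h difference was -0.68 (adjusted p = 5.37e-07). Read by MKI67 alone, the 12 h samples were at 95.4% of the Gln-added level, and read by TOP2A at 70.2%.

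The 2 intervals, Gln added to 12 h and 12 h to 24 h, were compared by a test of their difference. The 12 h libraries count against themselves in it. Because Gln added is not a zero time point, the earlier interval is a difference between groups and not a change over 12 h. The later fall was larger (difference below 0) for 32 of the 52 genes and smaller for 3, SPC24, CENPI and MAD2L1, with 17 not called. Of all genes tested, 18.7% were called below 0 and 18.8% above 0. Those shares count genes whichever way they moved, and so are not shares of genes that fell. With a difference of at least 0.5 on the log2 scale as well, the later fall was larger for 18 genes and smaller for SPC24 and CENPI. At that size, 9.02% of all genes were below 0 and 10.3% above 0, again whichever way they moved. Of the 22 genes not lower at 12 h, 20 had the larger later fall, with NDC80 (adjusted p = 0.0537) and ECT2 (adjusted p = 0.0981) not called. This count largely follows from the sorting, because the 12 h difference that sorted these genes also enters the test. Of the 30 genes lower at 12 h, 12 had the larger later fall, among them CCNB1 (-0.58), AURKB (-0.45) and CDC20 (-0.34). TOP2A (-0.11, interval from -0.29 to 0.07), HMMR (0.05, from -0.27 to 0.37) and KIF11 (0.07, from -0.11 to 0.25) were among the 15 for which no difference between the intervals was detected. For SPC24 the later change was smaller by 0.96 (interval from 0.67 to 1.25, adjusted p = 2.81e-04), for CENPI by 0.76 (adjusted p = 0.00572) and for MAD2L1 by 0.40 (adjusted p = 0.0498).

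**Figure D4:**
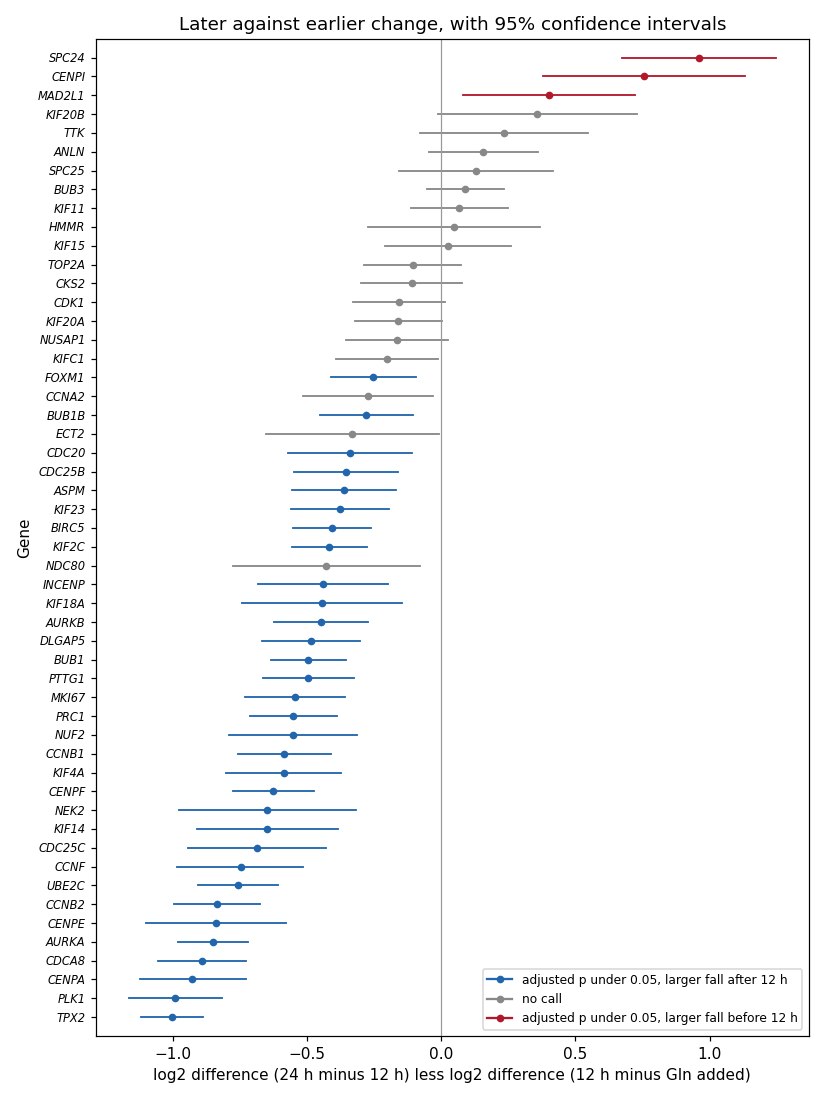
For each of the 52 genes, the log2 difference from 12 h to 24 h less the log2 difference from Gln added to 12 h (x axis, log2), with its 95% confidence interval. Points left of 0 had the larger fall from 12 h to 24 h (32 called, TPX2 lowest at -1.002). Points right of 0 had the larger fall from Gln added to 12 h (3 called, SPC24 highest at 0.96).

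Other genes of the same machinery, from 7 lists, are set beside these counts. The lists were not compared with each other by a test. The count of every list below is to be read beside the share of all genes tested. At 12 h, 31.0% of all genes were lower and 29.1% higher, and at 24 h 31.7% were lower and 33.0% higher. After 12 h, 10.5% of all genes fell and 9.57% rose. Of 37 further kinetochore genes, 25 were lower and 3 higher at 12 h, 30 were lower and 4 higher at 24 h, and 16 fell after 12 h. Among them ZWINT, a kinetochore scaffold protein, was at 59.7% at 12 h and 40.3% at 24 h, and CENPM, of the inner kinetochore, at 63.5% and 42.6%. BOD1, a regulator of phosphatase at the kinetochore, was higher at both times (133% each). Of 30 centrosome, spindle and cytokinesis genes, 16 were lower at 12 h, 26 at 24 h and 23 after 12 h. PIMREG and KIF22 had the largest 24 h falls there (log2 differences of -1.34 and -1.12), and PCNT, pericentrin, was at 117% at 12 h and 97.2% at 24 h.

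Of 20 cohesin and condensin genes, 11 were lower and 5 higher at 12 h, and 14 were lower and 4 higher at 24 h. The condensin subunits NCAPG and NCAPG2 went to 42.9% and 51.1% at 24 h, whereas MAU2, of the cohesin loader, was at 147%. Of the 17 genes of the anaphase-promoting complex and its partners, 9 were lower and 3 higher at 12 h, and 8 were lower and 1 higher at 24 h. ANAPC15 and FBXO5, the inhibitor EMI1, were at 60.5% and 61.2% at 24 h, and CDC16, a core subunit, at 127%.

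Of 13 tested genes that control mitotic entry (16 listed), 10 were lower at 12 h and 11 at 24 h. The kinase PBK and the checkpoint ATPase TRIP13 were at 45.1% and 47.6% at 24 h, and ENSA, an inhibitor of phosphatase PP2A, at 107% without a call. Of 14 genes of the MuvB, DREAM and E2F complexes, 8 were lower and 3 higher at 12 h, and 10 were lower and 1 higher at 24 h. The repressors E2F8 and E2F7 were at 34.8% and 46.3% at 24 h, and LIN37, a MuvB subunit, at 128%.

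S phase genes belong to the other large part of the proliferation program. Of 41, 40 were lower at 12 h and 41 at 24 h, with median log2 differences of -0.81 and -0.97, and 23 fell after 12 h with a median of -0.19. For the 52 mitotic genes the same medians were -0.16, -0.80 and -0.56. None of the 41 S phase genes had a larger fall after 12 h by the test between intervals, and 32 had a smaller one. Of all genes, 18.7% were called below 0 and 18.8% above 0 in that test, whichever way they moved. CDC6, a replication licensing factor, was at 33.5% at 12 h and 33.3% at 24 h, GINS2, of the replicative helicase, at 38.2% and 31.3%, and ORC6, of the origin recognition complex, at 96.0% and 78.0%.

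**Figure D5:**
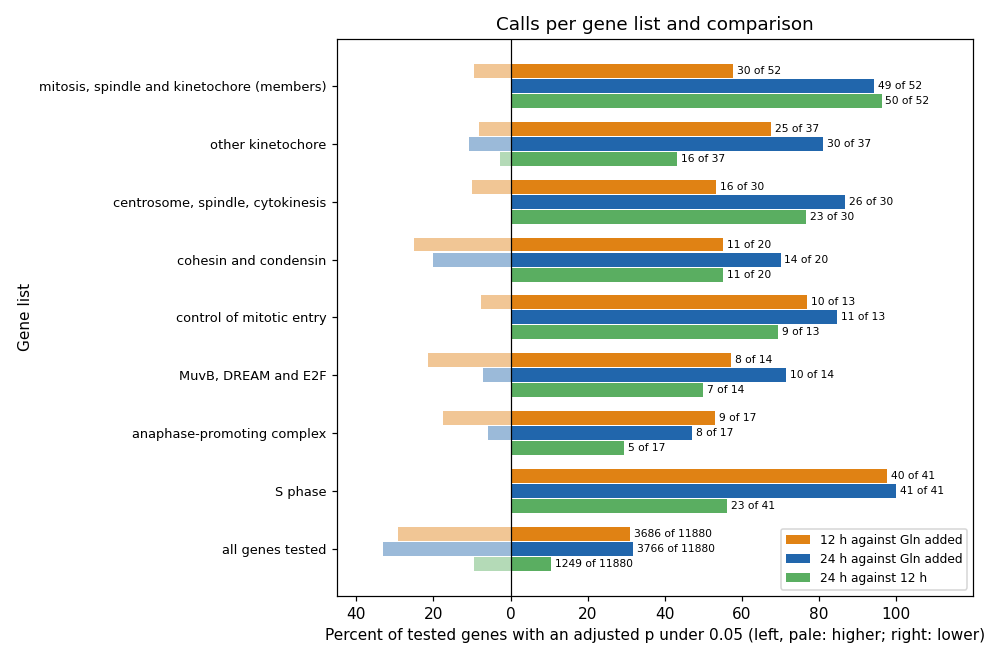
Percent of tested genes of each list called lower (bars to the right, with counts) or higher (pale bars to the left) at adjusted p under 0.05, for 12 h against Gln added, 24 h against Gln added and 24 h against 12 h. The 52 mitotic genes go from 30 to 49 called lower, and 40 of 41 S phase genes were lower already at 12 h; of all 11880 genes, 3686 were lower at 12 h and 3766 at 24 h.

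The genes were measured well. Their fragments ranged from 271 to 27711 per gene and library, and the coefficient of variation within a group had a median of 4.24% and was at most 13.5%. Levels with Gln added ran from 3.82 to 198 FPKM, with a median of 27.5 FPKM. The neighbours AURKA (67.7 FPKM) and BIRC5 (75.8 FPKM), or CDK1 and MKI67 (47.7 and 47.6 FPKM), started at like levels on this scale per length. Only CDK1 of these 4 was called lower at 12 h, although the 12 h libraries of BIRC5 also lay below those with Gln added. With 3 libraries against 3, an exact permutation test of a gene could not go below p = 0.1.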

How the data were processed

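RNA-seq of 9 HepG2 libraries in 3 groups of 3 was analysed. The authors deposited 1 table of FPKM per gene and library. Per the study's methods, reads were aligned to GRCh38 with STAR, and the submitters' processing notes name HTSeq, R 3.2.0 and GRCh38. The annotation and the strand setting are not given in the sources used here, and the labels and the methods name different library kits, so whether counting used strand is open. FPKM is scaled to the library total and gene length, so a gene's value also moves with the most abundant genes.

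FPKM were whole multiples of 1 fragment for 100% of genes (tolerance of 0.03 fragments), which gave fragments per gene and library. The 11880 of 22587 genes that averaged 0.5 FPKM or more were fitted together as log2(FPKM + 0.1) with limma 3.58.1 in R 4.3.3 (all 9 libraries, empirical Bayes with a trend), and p-values of each comparison were adjusted over all of them (Benjamini-Hochberg, threshold of 0.05, two-sided). Log2 differences are on that scale, which understates changes of low genes. Errors are standard errors of the fit, and depth enters the precision only as counting error. The step from 12 h to 24 h less the step to 12 h was a contrast of the same fit. Python 3.11.15, pandas 2.3.3, numpy 2.4.6 and matplotlib 3.10.9 did the rest. The fits were tested on simulated data. Gene positions and overlaps are from GENCODE on GRCh38, and promoters and motifs from RefSeq on GRCh38.p14.

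The members, the gene lists and the tests were chosen with earlier results of these data known. Values in every library are given for CCNB1, CDK1, CCNA2, PLK1, AURKA, AURKB, CDC20, FOXM1, TOP2A and MKI67, for the 4 members with the lowest log2 difference at 24 h, the 4 lowest at 12 h, the 4 with the largest fall from 12 h to 24 h, and every member not lower at 24 h. CCNB2, CDCA8 and CENPA were added after their values were seen. Of each list, the 2 genes with the lowest and the 1 with the highest log2 difference at 24 h are named, apart from some marker genes that are not reported here.

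Alternatives were other pseudocounts (1 and 0.01), dropping the filter or raising it to 1 FPKM, rescaled totals, median-ratio scaling, only the groups compared, the replicate number as a block, no trend, voom on the recovered fragments, stricter thresholds and leaving out each library. Running them on the pooled pathway lists and on the members and genes outside the naming rule was chosen after seeing the data.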

Additional observations from a re-analysis of the deposited data

Results flagged for a closer look

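The difference from Gln added changed between 12 h and 24 h for 50 of the 52 genes by the limma contrast of 24 h with 12 h, which is the test of that difference, and 10.5% of all genes fell in it. The genes above Gln added at 12 h are of most interest in this respect. From 12 h to 24 h the log2 change was -0.58 for CCNB2, -0.41 for NEK2, -0.77 for CDCA8, -0.75 for CENPA and -0.54 for TPX2. At 24 h, CCNB2, CDCA8 and CENPA were below Gln added, and NEK2 and TPX2 had no call. The other 47 genes include no gene called higher at 12 h.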

How the results depend on the processing

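Counts at 24 h moved little, whereas small classes moved with the settings. Of 4161 refitted values for the 52 members and 21 listed genes, 4018 kept their direction and call, 100 lost the call, 28 gained it and 15 changed sign without passing the threshold. Replicate numbers do not pair the libraries: correlations of same-numbered deviations ran from -0.136 to 0.283, and 2 of 9 were over 0.1. With the replicate number as a block, 30 genes were lower at 12 h, 49 at 24 h and 48 after 12 h, and SPC24's class held 3 genes. That class (1 gene) held 2 with a pseudocount of 1, with rescaled totals and without a trend, 3 without the filter and with only the groups compared, 5 at an adjusted p under 0.01 and 7 with a log2 difference of at least 0.5. The class higher at 12 h (5 genes) held 8 with rescaled totals and with voom, 2 at an adjusted p under 0.01 and 0 with a difference of at least 0.5. The remaining class, ECT2 alone, held 2 without the filter, without a trend and at an adjusted p under 0.01, 0 with rescaled totals, with only the groups compared and with voom, and 18 with a difference of at least 0.5. That last threshold left 11 genes lower at 12 h, 30 lower after 12 h, 20 with unequal intervals, 18 with the larger later fall and 4 lower in both intervals. It left 59 pooled pathway genes lower at 12 h (119 otherwise), 1 higher at 12 h (18), 1 higher at 24 h (10), 29 lower after 12 h (94) and 0 higher after 12 h (1). That last count was 3 with rescaled totals and 0 at an adjusted p under 0.01. A CHR before the start alone was found for 71.1% of genes.

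Leaving out each library gave 26 to 30 genes lower at 12 h, 49 to 50 at 24 h, 48 to 50 after 12 h, 29 to 38 with unequal intervals and 27 to 35 with the larger later fall. The classes held 23 to 28 (lower in both intervals), 1 to 3 (lower at 12 h, no call from 12 h to 24 h), 16 to 21 (only at 24 h), 3 to 6 (higher first) and 0 to 2 (other). For the pooled pathway genes these were 107 to 119 lower and 15 to 18 higher at 12 h, 136 to 141 and 8 to 11 at 24 h, and 72 to 87 and 1 to 3 after 12 h. Signs changed near 0, and without 1 library the values ran up to 0.064 (CCNF), 0.017 (AURKA), 0.071 (INCENP) and 0.067 (CENPE) at 12 h and down to -0.158 (NDC80) at 12 h and -0.036 (BOD1) and -0.021 (CDC6) after 12 h. At 12 h, CCNF was at -0.015 without Gln added replicate 3 and -0.033 without 12 h replicate 2, AURKA at -0.004 without Gln added replicate 2 and -0.002 without 12 h replicate 2, INCENP at -0.008 without 12 h replicate 2, CENPE at -0.005 without Gln added replicate 2 and -0.012 without 12 h replicate 3, and NDC80 at 0.016 without 12 h replicate 1. After 12 h, BOD1 was at 0.014 with rescaled totals, 0.013 without 12 h replicate 2 and 0.056 without 24 h replicate 3, and CDC6 at 0.007 with rescaled totals, 0.010 without 12 h replicate 3 and 0.007 without 24 h replicate 3. PCNT at 24 h was at 0.005 with rescaled totals. The cause was not tested.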
